A study of Rattus norvegicus with 13 samples.

Results

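The miR-99/100 and miR-125 family is described here in the kidneys of 13 rats, of which 9 had been irradiated. Its members were chosen by name as the guide strands rno-miR-99a-5p, rno-miR-99b-5p, rno-miR-100-5p, rno-miR-125a-5p and rno-miR-125b-5p, written below without the species prefix. All 5 were found among the 460 mature rat miRNAs counted, and all 5 passed the filter on low counts that left 419 for testing. None was chosen for a measured value. Small RNA libraries had been made from 1 ug of total kidney RNA per rat. All animals were female WAG/RijCmcr rats, an inbred Wistar strain used in studies of late radiation injury, aged 11 to 12 weeks and weighing about 155 g. Controls (n = 4) were age-matched and received 0 Gy and no lisinopril. A dose of 13 Gy (320 kVp X-rays, delivered at 1.75 Gy per minute) was given to the irradiated rats (n = 4), with a hind limb kept out of the beam and no lisinopril. The third group (n = 5) received the same irradiation and then lisinopril, an inhibitor of angiotensin converting enzyme, in the drinking water at a daily dose of about 24 mg per m2, begun on day 7. Tissue from all groups was collected on day 35. Saline (40 ml per kg per day, days 3 to 7) and the antibiotic enrofloxacin (10 mg per kg per day, up to day 14) were given as supportive care. The labels do not say whether the controls received them, so that irradiation and supportive care cannot be told apart. Whole kidney was sampled, so that fewer cells of a type and less RNA per cell cannot be told apart either.

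A miRNA is a short RNA cut from a hairpin transcript, and its seed, the bases near its 5′ end, pairs with target mRNAs and lowers their output. miR-125 is the vertebrate counterpart of lin-4, a regulator of developmental timing in worms, and miR-125b is known to repress p53 in human and zebrafish cells. miR-99 and miR-100 repress mTOR, a kinase that drives growth, and the chromatin remodeller SNF2H, which takes part in repair of broken DNA. The hairpins lie in clusters that each hold a miR-99/100 hairpin, a let-7 hairpin and a miR-125 hairpin.

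The RefSeq table of the GRCr8 assembly gave a mature sequence for 4 of the 5 members, all but miR-99a-5p. They are shown because their seeds divide the family into miR-99/100 and miR-125. Capitals mark the seed, bases 2 to 8 from the 5′ end, and miR-351-5p is added because it shares the miR-125 seed.
miR-99b-5p: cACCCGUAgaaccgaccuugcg
miR-100-5p: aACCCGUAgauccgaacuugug
miR-125a-5p: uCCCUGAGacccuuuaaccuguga
miR-125b-5p: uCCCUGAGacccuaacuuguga
miR-351-5p: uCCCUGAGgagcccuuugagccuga
Among 693 mature rat sequences in the reference, the seed ACCCGUA was found in 2, miR-99b-5p and miR-100-5p. The seed of miR-99a-5p could not be read there, so its absence from this count says nothing about its seed. The seed CCCUGAG was found in 3, miR-125a-5p, miR-125b-5p and miR-351-5p. Read from miR-100-5p to miR-99b-5p, with positions counted from 1 at the 5′ end, the substitutions were A1C, U11A, A16C and U21C, all outside the seed. miR-125b-5p (22 bases) and miR-125a-5p (24 bases) shared their first 13 bases, whereas miR-125b-5p and miR-351-5p shared the first 8. In the GRCr8 gene order, Mir99b stood with Mirlet7e and Mir125a within the protein-coding gene Spaca6. Mir100 stood with Mirlet7a-2 and Mir125b1 in a stretch spanned by Mir100hgl, annotated as protein-coding, and the long non-coding RNA Lnc215. Mir99a stood with Mirlet7c1 and Mir125b2 in the long non-coding RNA LOC103693508. miR-125b-5p can therefore come from either of 2 hairpins, and its count does not say which.

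Depth was 1194175 to 11095939 rat miRNA counts per library. Control library 2 was the shallowest and stood apart: 37 of the 460 rat miRNAs were at 0 there, against 0 to 3 in the other libraries, and miRNAs named after other species made up 29.0% of its mature counts, against 10.3% to 14.6%. Levels below are CPM, the usual depth-normalized read count, on library sizes scaled by the trimmed mean of M values (TMM, factors 0.787 to 1.19). A count of 3 corresponded to 3.19 CPM in control library 2 and to 0.289 to 0.561 CPM elsewhere, and the least abundant member had at least 173 counts in every library. Rats are numbered within each group as a name only.

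In every library the family was led by miR-125a-5p, followed by miR-99b-5p, miR-125b-5p, miR-99a-5p and miR-100-5p. This order held in 13 of 13 libraries for each pair of neighbours. miR-125a-5p was counted 1.22 to 2.01 times as often as miR-99b-5p, and miR-99b-5p 1.76 to 2.66 times as often as miR-125b-5p. miR-125b-5p was counted 2.15 to 3.90 times as often as miR-99a-5p, and miR-99a-5p 2.74 to 3.28 times as often as miR-100-5p. Among the 460 rat miRNAs, miR-125a-5p ranked 20 to 29 by count and miR-100-5p ranked 117 to 135. The 5 members together made up 0.738% to 1.46% of rat miRNA counts. Of the family's own sum, miR-125a-5p held 43.4% to 54.2% and miR-100-5p 1.15% to 2.17%. Counts of different miRNAs also depend on how well each is ligated and amplified, which was not measured, so the order is one of read counts.

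**Figure D1:**
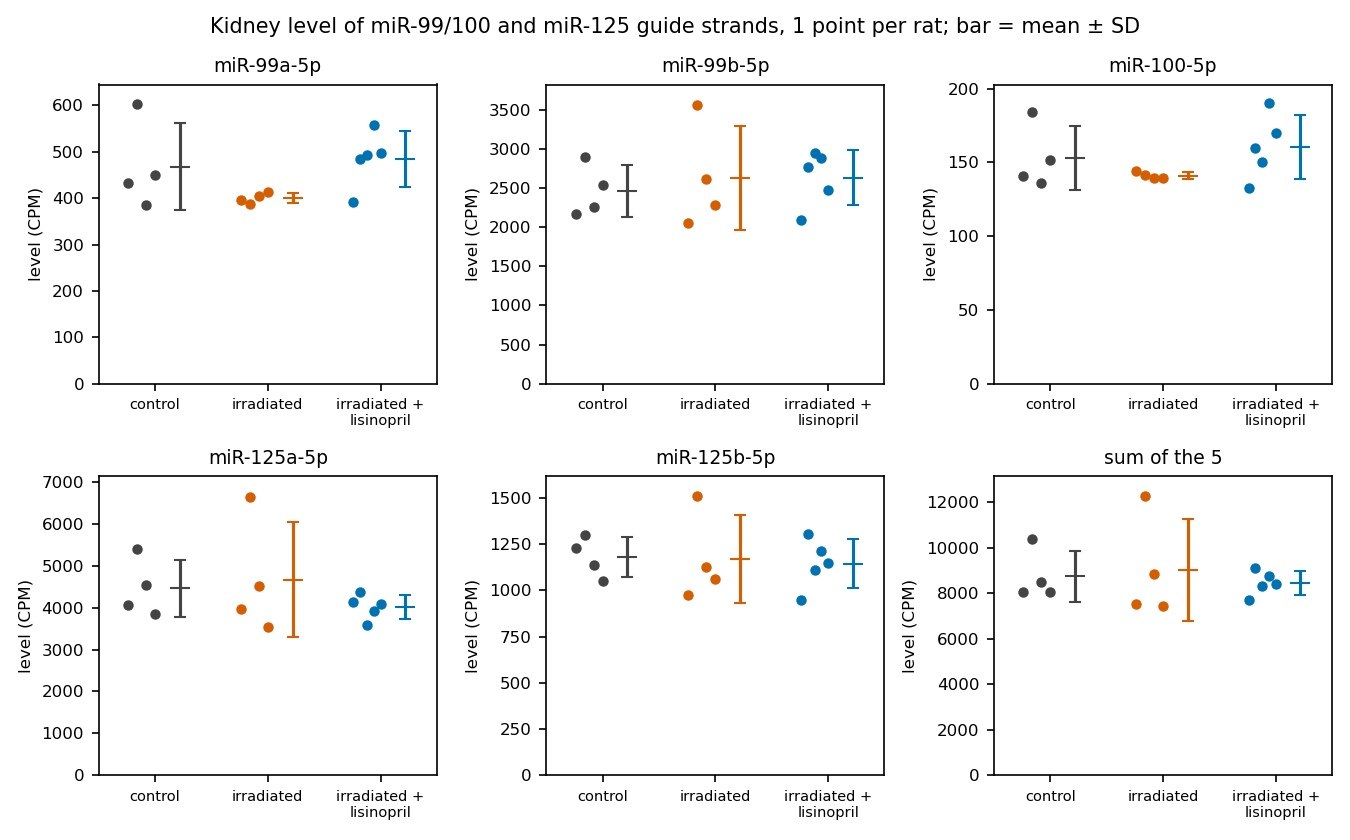
Level of each member and of their sum (CPM, linear axes from 0, a scale of its own in each panel) in each of the 13 rats, by group, with the group mean ± SD as a bar. The groups overlap in every panel, irradiated rat 2 is the highest point for miR-99b-5p, miR-125a-5p and miR-125b-5p, and the irradiated rats lie close together for miR-99a-5p (387 to 412 CPM) and miR-100-5p (139 to 144 CPM).

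miR-125a-5p, encoded beside miR-99b, was the most abundant member. Its levels were 4070, 5395, 4550 and 3840 CPM in control rats 1 to 4. They were 3958, 6641, 4527 and 3547 CPM in irradiated rats 1 to 4, and 4143, 4365, 3596, 3926 and 4091 CPM in lisinopril-treated rats 1 to 5. The groups overlapped, and irradiated rats held both the highest level, in rat 2, and the lowest, in rat 4. Group means were 4464 ± 688 CPM (SD, n = 4) in controls, 4668 ± 1375 (n = 4) in irradiated rats and 4024 ± 286 (n = 5) with lisinopril.

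miR-99b-5p, from the same cluster, stood at 2169, 2908, 2264 and 2543 CPM in the controls. The irradiated rats had 2062, 3570, 2626 and 2287 CPM, and the lisinopril-treated rats 2092, 2781, 2949, 2886 and 2476 CPM. Irradiated rat 2 was again the highest of all 13, and the remaining 12 lay between 2062 and 2949 CPM with the groups interleaved. Means were 2471 ± 332, 2636 ± 664 and 2637 ± 355 CPM (SD, n = 4, 4 and 5).

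miR-125b-5p, the product of 2 hairpins, stood at 1231, 1298, 1138 and 1050 CPM in the controls. It stood at 977, 1513, 1125 and 1059 CPM in the irradiated rats and at 945, 1304, 1108, 1214 and 1149 CPM with lisinopril. Irradiated rat 2 was once more the highest, and lisinopril-treated rat 1 the lowest. The group means, 1179 ± 108, 1169 ± 237 and 1144 ± 134 CPM (SD, n = 4, 4 and 5), lay closer together than the replicates of any group.

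miR-99a-5p stood at 433, 603, 386 and 451 CPM in the controls. It stood at 396, 387, 404 and 412 CPM in the irradiated rats and at 391, 485, 492, 559 and 498 CPM with lisinopril. Control rat 2, the shallowest library, was the highest, and 4 of the 5 lisinopril-treated rats lay above all 4 irradiated rats. The fifth, rat 1, lay among them, so the groups overlapped. Means were 468 ± 94.0, 400 ± 10.7 and 485 ± 60.0 CPM (SD, n = 4, 4 and 5).

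miR-100-5p, the least abundant member, stood at 141, 184, 136 and 152 CPM in the controls. The irradiated rats had 144, 141, 139 and 139 CPM, and the lisinopril-treated rats had 132, 160, 150, 190 and 170 CPM. As with miR-99a-5p, 4 of the 5 lisinopril-treated rats lay above every irradiated rat, and rat 1 lay below them all. Means were 153 ± 21.7, 141 ± 2.24 and 160 ± 21.6 CPM (SD, n = 4, 4 and 5).

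The members differed in how far the irradiated rats spread. The coefficient of variation there was 1.59% for miR-100-5p and 2.68% for miR-99a-5p, against 20.3% for miR-125b-5p, 25.2% for miR-99b-5p and 29.5% for miR-125a-5p. The last 3 values rest largely on irradiated rat 2: without it they were 7.06%, 12.2% and 12.3%, whereas miR-100-5p and miR-99a-5p stood at 1.94% and 2.03%. With all 4 irradiated rats, the median over the 419 tested miRNAs was 22.5%, and no tested miRNA was below miR-100-5p. Without rat 2 the median was 17.9%, and miR-100-5p ranked 5 from the lowest. Counting error alone, from 770 to 1138 counts of miR-100-5p, would give about 3.31%, so that its spread was smaller than the depth can resolve. Among controls the coefficients were 14.2% for miR-100-5p and 20.1% for miR-99a-5p, beside a median of 20.6%. These rest on control rat 2, the shallow library, without which they were 5.73% and 7.92%, beside a median of 18.1%. No test was made of the difference in spread. Summed over the 5 members, levels were 8735 ± 1121 CPM in controls, 9014 ± 2249 in irradiated rats and 8450 ± 526 with lisinopril (SD, n = 4, 4 and 5), with irradiated rat 2 the highest at 12253 CPM.

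The first comparison addressed what irradiation had done by day 35. None of the 5 members passed the threshold of an adjusted p of 0.05 in edgeR's quasi-likelihood test, where 1.67% of all 419 miRNAs passed it (2 higher, 5 lower). Without irradiated rat 4, the library whose removal moved that count most, 60 miRNAs passed and still 0 of the 5 members. The difference furthest from 0 was that of miR-99a-5p, at -0.22 on the log2 scale in irradiated against control rats (SE 0.142, 95% interval -0.53 to 0.08, adjusted p = 0.349). For miR-100-5p, with the same seed as miR-99b-5p, it was -0.11 (SE 0.136, adjusted p = 0.620). miR-99b-5p differed by 0.09 (SE 0.167, adjusted p = 0.766), miR-125a-5p by 0.07 (SE 0.171, adjusted p = 0.844) and miR-125b-5p by -0.01 (SE 0.144, adjusted p = 0.986). Without irradiated rat 2, miR-125a-5p and miR-99b-5p changed sign, to -0.15 and -0.083. With each library left out in turn, miR-99a-5p ran from -0.32 to -0.08. Control rat 2, the shallow library, held the highest control level of all 5 members. The median over the 5 was -0.01, beside 0.02 over all 419. None of the members had groups that did not overlap, a pattern found in 7.16% of the 419. Every interval spanned 0, and together they ran from -0.53 to 0.45, so that changes outside 0.695-fold to 1.37-fold lie beyond all of them. Scaling by library totals alone, which moved the median of all miRNAs by 0.23, put all 5 members above 0, between 0.05 for miR-99a-5p and 0.37 for miR-99b-5p.

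The next comparison asked what lisinopril added to irradiation. Again none of the 5 members was called, and neither was any of the 419 (0%) in edgeR's test, although 63 (15%) had an unadjusted p under 0.05, DESeq2 called 11 and limma-voom 2. Without irradiated rat 4, 47 miRNAs passed in edgeR's test, and again 0 of the 5 members. miR-99a-5p was 0.28 higher on the log2 scale with lisinopril (SE 0.135, 95% interval -0.01 to 0.57, adjusted p = 0.325 in edgeR's test), or 1.21-fold. It was higher than the irradiated mean of 400 CPM in 4 of 5 rats. miR-100-5p differed by 0.19 (SE 0.128, adjusted p = 0.474) and miR-125a-5p by -0.21 (SE 0.162, adjusted p = 0.530). The values of miR-99b-5p, 0.0003 (adjusted p = 0.999), and miR-125b-5p, -0.03 (adjusted p = 0.936), were the nearest to 0. The 5 had a median of 0.0003, beside -0.02 over all miRNAs, and their groups overlapped throughout, as they did in all but 4.3% of the 419. The intervals ran from -0.56 to 0.57, or 0.679-fold to 1.48-fold. With library totals alone the median of all miRNAs moved by -0.19, and miR-99b-5p and miR-100-5p then stood at -0.21 and -0.01.

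Lisinopril-treated irradiated rats were last compared with unirradiated controls. No member passed, against 6.21% of the 419 miRNAs (3 higher, 23 lower). That number ranged from 13 without control rat 4 to 43 without irradiated rat 2, with 0 of the 5 members in either case. The log2 differences were 0.05 for miR-99a-5p (adjusted p = 0.850), 0.09 for miR-99b-5p (0.822) and 0.07 for miR-100-5p (0.822). They were -0.15 for miR-125a-5p (0.685) and -0.04 for miR-125b-5p (0.894), with standard errors of 0.129 to 0.162. The 5 had a median of 0.05, beside 0.05 over all miRNAs. The intervals spanned 0 and ran from -0.49 to 0.43, and again no member had groups that did not overlap, beside 13.4% of all miRNAs. The 3 comparisons share libraries, so their values are not independent of one another. Over 25 other settings of the analysis, 0 of the 5 members passed under any setting in any of the comparisons. The lowest adjusted p among them was 0.175 for irradiation, 0.0586 for lisinopril against irradiation alone and 0.303 for lisinopril against control.

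**Figure D2:**
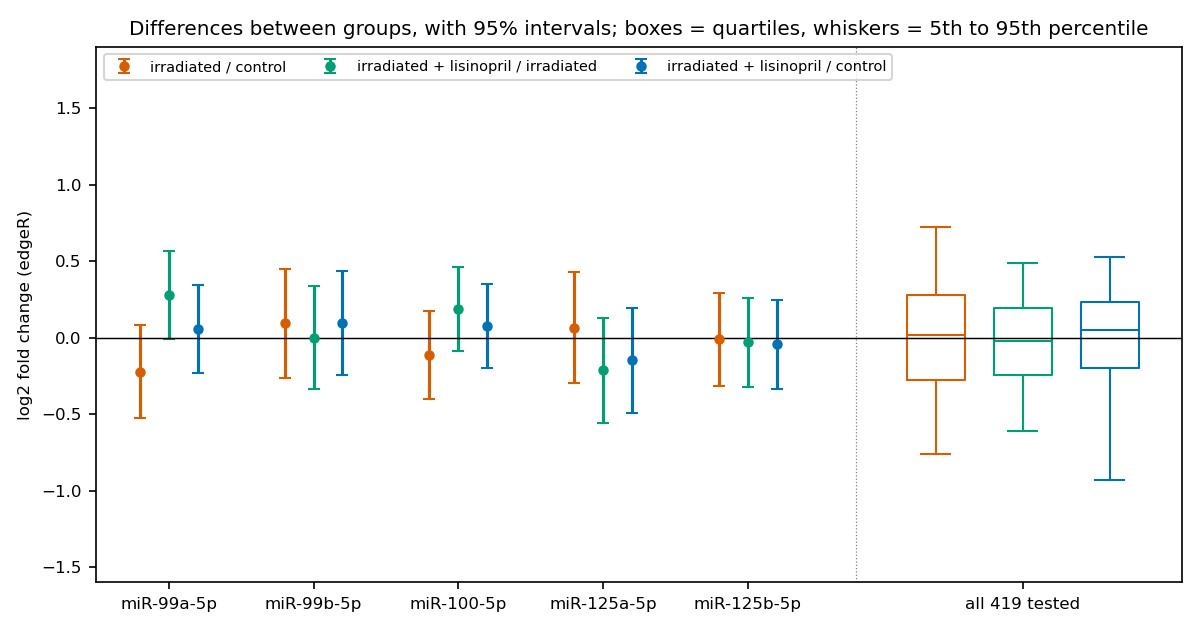
Log2 fold change of each member in the 3 comparisons (points, with 95% intervals from the edgeR fit), beside boxes for all 419 tested miRNAs (quartiles, whiskers from the 5th to the 95th percentile). All 15 intervals cross 0, and their bounds lie between -0.56 and 0.57.

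A ratio of counts within a library does not depend on how libraries are scaled, and 9 such ratios were compared between groups by two-sided exact permutation tests. Over 27 tests, none passed after Benjamini-Hochberg adjustment, the lowest adjusted p being 0.756. The smallest p that 4 against 4 rats allow is 0.0286, and for 5 against 4 it is 0.00794. miR-99a-5p over miR-100-5p was 2.84 to 3.27 in controls, 2.74 to 2.96 in irradiated rats and 2.93 to 3.28 with lisinopril. This ratio gave the smallest raw p, 0.0635 by exact permutation, for lisinopril (mean log2 ratio 1.60 ± 0.07) against irradiation alone (1.505 ± 0.06). miR-125a-5p over miR-125b-5p was 3.31 to 4.16 in controls, 3.35 to 4.39 in irradiated rats and 3.23 to 4.38 with lisinopril. miR-99b-5p over miR-100-5p, members with the same seed, was 15.4 to 16.7 in controls, 14.3 to 25.3 in irradiated rats and 14.6 to 19.7 with lisinopril. The 25.3 was that of irradiated rat 2, and irradiated rat 1 lay below every control. The difference in mean log2 ratio between irradiated and control rats was 0.18 (exact permutation p = 0.400), and without irradiated rat 2 it was 0.0255. Of the cluster mates, miR-99b-5p over miR-125a-5p was 0.498 to 0.662, 0.521 to 0.645 and 0.505 to 0.820 in the 3 groups. The summed miR-99/100 members stood at 0.490 to 0.763 of the summed miR-125 members over all 13 libraries.

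**Figure D3:**
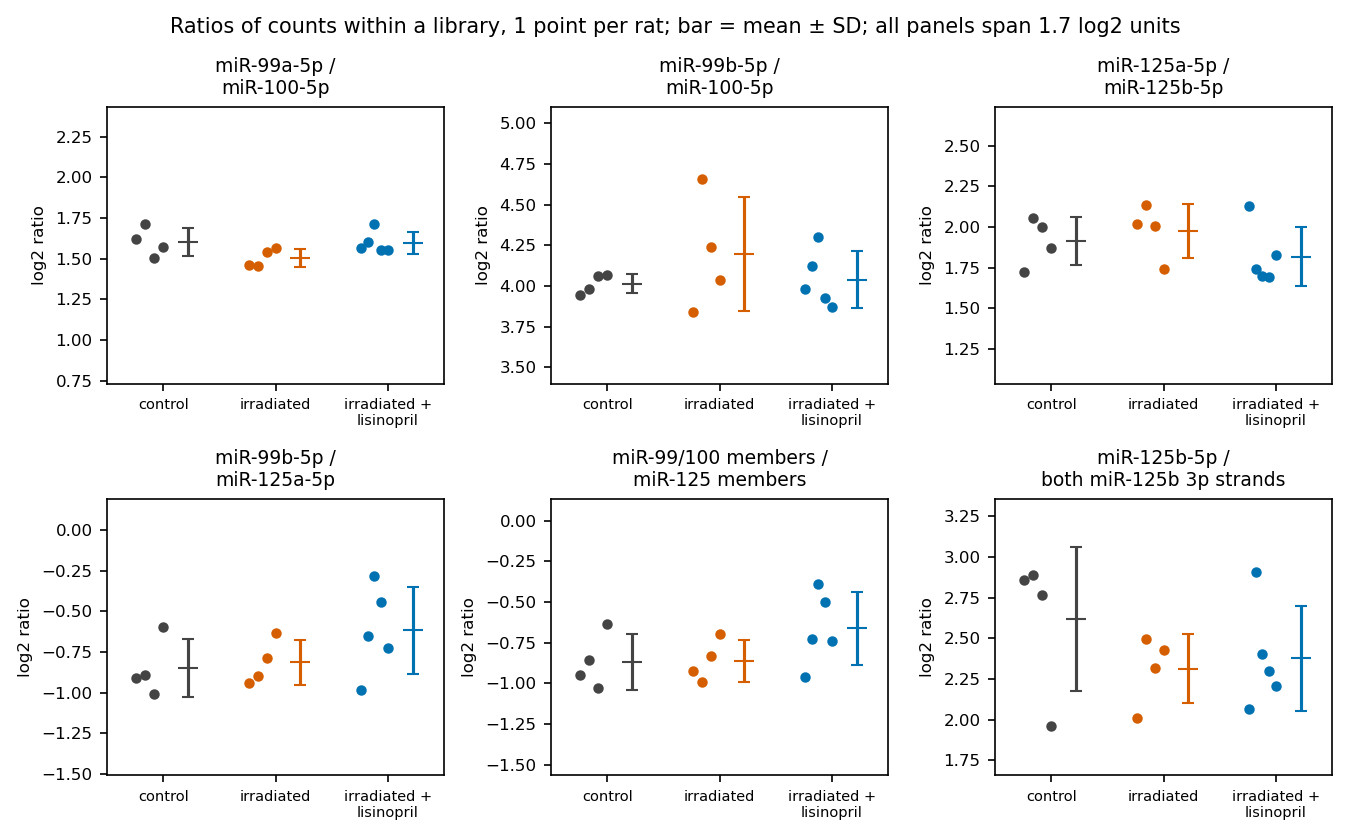
Ratios of counts within a library (log2, axes of equal span) in each rat, by group, with the group mean ± SD as a bar, for 5 ratios between members and for miR-125b-5p over both of its opposite strands. The ratio of miR-99a-5p to miR-100-5p spreads least, at 2.74 to 3.28 on the linear scale over all libraries, and the groups overlap in every panel. Whether reads were shared between miR-99a-5p and miR-100-5p was not tested.

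The opposite strand of a hairpin is usually degraded when the guide strand is loaded into the silencing complex. In these kidneys the guide exceeded it in every library for miR-99a, miR-99b, miR-100 and miR-125a, and miR-125b-5p exceeded the opposite strands of its 2 hairpins summed. miR-125a-5p was counted 209 to 473 times as often as miR-125a-3p, and miR-99b-5p 44.5 to 75.5 times as often as miR-99b-3p. miR-99a-5p was counted 9.19 to 18.0 times as often as miR-99a-3p. miR-100-3p had 2 to 15 counts per library, too few for the filter and for a test. miR-125b-5p stood only 3.89 to 7.51 times above miR-125b-1-3p and miR-125b-2-3p together. These strands name their hairpin, and miR-125b-2-3p (155 to 258 CPM) stood above miR-125b-1-3p (10.5 to 15.9 CPM) in every library. Of the 7 names listed for opposite strands, 6 were in the table and 5 were tested, and 0 of 5 were called in any comparison. Over all 419 miRNAs the shares called were 1.67%, 0% and 6.21%, so that 0 of 5 does not set these strands apart.

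miR-125a-3p was the opposite strand with the largest difference. It stood at 10.2, 12.8, 14.5 and 18.3 CPM in controls, at 17.0, 18.1, 15.8 and 16.8 CPM in irradiated rats and at 8.67, 12.2, 9.72, 13.7 and 15.1 CPM with lisinopril. All 5 lisinopril-treated rats lay below all 4 irradiated rats, a pattern in that direction found in 2.15% of the 419 miRNAs. The log2 difference was -0.51 (SE 0.195, 95% interval -0.92 to -0.09), and it did not pass adjustment in edgeR's test (adjusted p = 0.248). These values rest on 53 to 146 counts per library. Its guide, miR-125a-5p, differed by -0.21 in the same comparison, and the ratio of guide to opposite strand did not differ beyond the spread (exact permutation p = 0.159).

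The let-7 miRNAs, whose guide strands repress growth genes such as Ras and HMGA2, are encoded between the members. Of 6 names listed, 5 were in the table and were tested, and 0 of 5 were called in each comparison. let-7c-5p (5094 to 11047 CPM) and let-7a-5p (3902 to 8035 CPM) stood far above miR-99a-5p and miR-100-5p beside which they are encoded, but each also comes from a further hairpin elsewhere. let-7e-5p, from the miR-99b cluster, stood at 657 to 1040 CPM, below both of its neighbours in that cluster. In lisinopril-treated against control rats, let-7c-5p differed by 0.35 (SE 0.154, adjusted p = 0.195 in edgeR's test) and let-7a-5p by 0.33 (SE 0.149, adjusted p = 0.211). Medians over the 5, both strands pooled, were 0.23 for irradiation, 0.06 for lisinopril against irradiation alone and 0.15 for lisinopril against control. Over all miRNAs they were 0.02, -0.02 and 0.05. The highest irradiation value of the 5 was that of the opposite strand let-7e-3p, at 0.35, and let-7c-1-3p had only 3 to 47 counts per library.

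All 3 listed relatives by sequence were measured, and 0 of 3 were called in any comparison by edgeR, beside 1.67%, 0% and 6.21% of all 419. miR-10a-5p, whose family shares an ancestor with miR-99/100, was the most abundant miRNA in every library and held 28.9% to 44.2% of rat counts. Its level was 288350 to 562050 CPM in controls, 251360 to 320320 in irradiated rats and 318520 to 406320 with lisinopril. The 562050 CPM was that of control rat 2, the shallow library, and the other controls lay at 288350 to 380530 CPM. The log2 difference was -0.54 for irradiation (SE 0.176, adjusted p = 0.0931) and 0.41 for lisinopril against irradiation alone (SE 0.168, adjusted p = 0.261). The former passed with DESeq2 (adjusted p = 0.0498) and without irradiated rat 4 (0.0444), and the latter with limma-voom using sample quality weights (0.034). Over 24 alternatives the former ran from -0.68 to -0.25, with an adjusted p of up to 0.308. The latter ran from 0.22 to 0.50, with an adjusted p of up to 0.606. miR-10b-5p stood at 51.3 to 112 CPM and differed by -0.24 and 0.47 in the same comparisons (adjusted p = 0.481 and 0.261). miR-351-5p, which carries the miR-125 seed, stood at 956 to 1928 CPM and exceeded miR-125b-5p in 12 of 13 libraries, at 0.903 to 1.59 times its count.

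A separate entry, miR-3588, is annotated on the strand opposite Mir125b2 and has this sequence, shown because it is the exact reverse complement of miR-125b-5p.
miR-3588: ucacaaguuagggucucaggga
Its counts were 0.733 to 0.770 of those of miR-125b-5p in each of the 13 libraries. Entries opposite the let-7 hairpins of 2 clusters were also counted: miR-3596c 0.285 to 0.339 times as often as let-7e-5p, and miR-3596a 3.32 to 4.74 times as often as let-7a-5p. Unlike the others, miR-3596a thus exceeded its partner in every library. How strand and multiply mapped reads were treated in the counting is unknown from the labels and headers, so that reads of miR-125b-5p and of miR-3588 cannot be told apart. The same limit holds for the levels of let-7e-5p and let-7a-5p given above. With the miR-3588 counts added to miR-125b-5p, miR-99b-5p still stood above it in 13 of 13 libraries, by 1.01 to 1.5 times. miR-351-5p, at 0.903 to 1.59 times miR-125b-5p alone, would lie below the same sum in every library. The log2 differences of miR-3588 were -0.01, -0.01 and -0.02 in the 3 comparisons, beside -0.01, -0.03 and -0.04 for miR-125b-5p.

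Likeness of relative levels was described by the root mean square (RMS) difference of log2 CPM, each miRNA centred on its own mean, over the 13 libraries. A value of 0 means the same relative level in every library. miR-99a-5p and miR-100-5p differed by 0.08, the smallest value each had with any of the 418 other tested miRNAs. They lie in different clusters, and their own cluster mates were less alike: miR-99a-5p and miR-125b-5p differed by 0.22, and miR-100-5p and miR-125b-5p by 0.19. How multiply mapped reads were counted is unknown, and the reference gave no mature sequence for miR-99a-5p. Whether miR-99a-5p and miR-100-5p shared reads was therefore not tested, and their likeness is one of counts. miR-99b-5p and miR-125a-5p, which share a cluster, differed by 0.21, more than either did from miR-125b-5p (0.14 and 0.16). The median over all other miRNAs was 0.37 to 0.42, depending on the member. These values are descriptions over libraries that share depth and scaling. A low value can come from little spread in both miRNAs as well as from levels that move together, and counting error raises it for rare miRNAs.

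Outside the family, the nearest to miR-99a-5p were miR-27b-3p (RMS difference 0.13), miR-3586-3p (0.13) and miR-151-5p (0.13), and the nearest to miR-100-5p were miR-151-5p (0.11), miR-3586-3p (0.11) and miR-25-3p (0.13). For miR-99b-5p they were miR-24-3p (0.13), miR-3588 (0.14) and miR-874-3p (0.17). For miR-125a-5p they were miR-200b-5p (0.11), miR-671 (0.16) and miR-3588 (0.17), and for miR-125b-5p miR-3588 (0.02), miR-24-3p (0.12) and miR-361-5p (0.12). Both abundant members and miR-125b-5p thus had the antisense entry of miR-125b-5p among their nearest 3, whereas miR-99a-5p and miR-100-5p shared 2 of their nearest 3.

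**Figure D4:**
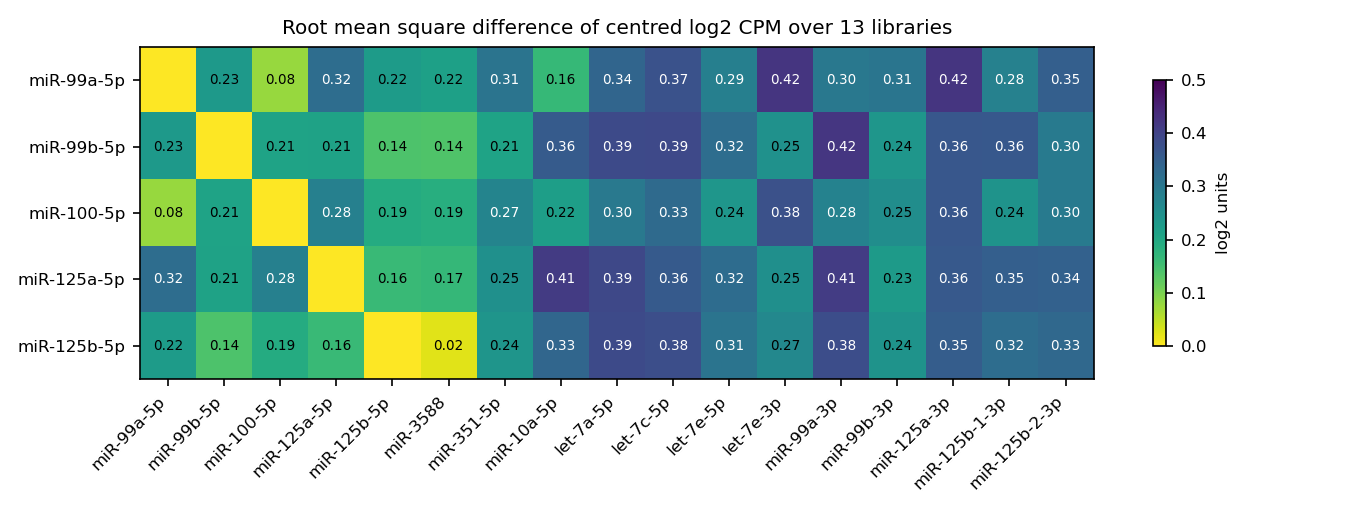
RMS difference of centred log2 CPM over 13 libraries between each member (rows) and the members and related miRNAs (columns), where a lower value means more alike. The lowest values are 0.02 for miR-125b-5p with miR-3588 and 0.08 for miR-99a-5p with miR-100-5p.

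Markers of kidney cell types were read beside the members. Epithelial and tubular miRNAs, led by miR-192-5p and miR-194-5p, were all found (8 of 8). They summed to 75736 to 101750 CPM in controls, 46465 to 81157 in irradiated rats and 60441 to 109470 with lisinopril. Muscle, neural and liver miRNAs, of which 3 of 6 were in the table (miR-9a-5p and miR-133a-3p the most abundant), summed to 227 to 522 CPM. Smooth muscle and fibroblast miRNAs (7 of 8, led by miR-143-3p and miR-199a-3p) summed to 28823 to 40903 CPM in controls, 33113 to 38567 in irradiated rats and 27926 to 56019 with lisinopril. Endothelial (miR-126a-5p and miR-126a-3p), leukocyte (5 of 5, led by miR-150-5p and miR-142-5p) and erythroid miRNAs (4 of 4, led by miR-486 and miR-451-5p) summed to 8537 to 15599, 660 to 1423 and 674 to 4229 CPM over all libraries. The leukocyte sum hides unlike directions: in irradiated against control rats miR-150-5p differed by 0.66 on the log2 scale, whereas 4 of the 5 were lower. The median of the 5 was -0.57, and their lowest adjusted p was 0.065 in edgeR's test. No marker of any of these lists was called by edgeR in any comparison. Over all 419 miRNAs the shares called were 1.67% for irradiation, 0% for lisinopril against irradiation alone and 6.21% for lisinopril against control. With shares this low, the absence of calls among these lists says little about cell composition. The part of these markers in the members' values was not tested.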

How the data were processed

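Small RNA libraries of 13 rat kidneys (TruSeq small RNA kit, per the labels' protocols) were grouped by the group name in the labels, which give no batch, litter or pairing. Trim Galore 0.2.5, Bowtie 1.1.1 and the rn4 genome are named in the submitters' processing notes. The counting step, with its treatment of strand and of multiple mapping, was not given in the sources used here. Values deposited by the authors are whole-number read counts for each miRNA in each library, with no sign of normalization.

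Tests on the 460 mature rat miRNAs used edgeR 4.0.16 (R 4.3.3): filterByExpr by group (419 kept, 41 left out), TMM scaling, a quasi-likelihood fit with a mean per group over all 13 libraries (biological coefficient of variation 0.247), and Benjamini-Hochberg adjustment over 419 miRNAs. Standard errors and 95% intervals come from that fit. Log2 CPM adds a prior count of 2, and 0.5 counts were added to each side of a ratio. A strand ratio was tested where the opposite strand had at least 10 counts in every library. Replicates of a group differed well beyond counting error (89.6 to 879 as chi-square over its degrees of freedom, 22 pairs), so none was counted as a duplicate. Floors of 3 counts cover counting error only, since reads carry no molecular identifiers.

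On simulated counts, edgeR recovered 84.9%, 86.5% and 90.7% of miRNAs changed by 1 on the log2 scale for irradiated against control (409 miRNAs), lisinopril against irradiated (411) and lisinopril against control (407), and 98.9%, 99.1% and 96% of those changed by 2. Changes smaller than 1, such as those measured for the members, were not simulated, so the recovery of such changes is unknown. For irradiated against control, 106 of the 409 simulated miRNAs were changed by 1 and 92 by 2, whereas 1.67% of the 419 measured miRNAs were called. So large a changed share eases the adjusted threshold, so these percentages cannot be read as recovery in these data.

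The members, lists, tests and alternatives were chosen with earlier results of these data known. Named are the 5 members, the measured opposite strands, let-7 partners and sequence relatives, the 3 non-members nearest each member by RMS difference, and the 2 most abundant miRNAs of each marker list. miR-3588, miR-3596a and miR-3596c were named as antisense entries after their values were seen. Alternatives were RLE size factors, library totals alone, leaving out the most abundant miRNA (miR-10a-5p), DESeq2 1.42.0, limma-voom (limma 3.58.1), robust dispersion, keeping every miRNA, keeping those with a mean of 10 CPM or more, only the 2 groups compared, rat plus other-species miRNAs, 10 counts added to ratios, and each library left out in turn. Voom with sample quality weights and antisense entries added to their partners were chosen after seeing the data. Predicted miRNAs were left out.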

Additional observations from a re-analysis of the deposited data

Results flagged for a closer look

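Of 84 groups of 4 or 5 rats checked for a value far from the others, 4 held one, and chance gives about 1 in 20. The level of miR-125b-2-3p in control rat 4 was 258 CPM, against 155 to 161 CPM in the other 3 controls. The log2 ratio of miR-125b-5p over both of its opposite strands rests on that same value and was 1.96 in control rat 4, against 2.76 to 2.89 in the others. The level of miR-99a-3p in control rat 3 was 25.9 CPM, below the 33.0 to 33.4 CPM of the other controls. The level of miR-100-3p in lisinopril-treated rat 2 was 1.57 CPM, from 15 counts, against 0.679 to 0.827 CPM in the other 4 rats. None of the 5 guide strands held such a value.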

How the results depend on the processing

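No member was called under any alternative. Signs of members did change, in 26 of 195 values with a library left out and 19 of 180 under other settings, and not only for differences near 0: with library totals alone miR-99a-5p and miR-100-5p, at -0.22 and -0.11 for irradiated against control, moved above 0. No paired analysis was possible because the groups are of different rats and the labels give no pairing between them. All values below are log2 differences unless counts.

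For irradiated against control, called miRNAs numbered 37 (DESeq2), 2 (library totals alone), 1 (only the 2 groups compared) and 1 (rat and other-species miRNAs), beside 7. Library totals gave 0.051 (miR-99a-5p), 0.15 (miR-100-5p), 0.26 (miR-125b-5p), 0.24 (miR-99a-3p), 0.21 (let-7c-1-3p) and 0.027 (miR-10b-5p). Quality weights gave -0.0044 (miR-99b-5p), -0.013 (miR-125a-5p), 0.071 (miR-99a-3p) and 0.19 (let-7c-1-3p). miR-99a-3p was 0.0025 with DESeq2, 0.0046 without the filter and 0.025 with other-species miRNAs, and the last 2 gave 0.0085 and 0.030 for miR-125b-5p.

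For lisinopril against irradiated, called miRNAs numbered 11 (DESeq2), 33 (quality weights) and 2 with each of library totals, RLE, voom and a mean of 10 CPM, beside 0. miR-99b-5p was -0.025 (DESeq2), -0.025 (RLE), -0.043 (mean of 10 CPM), -0.015 (no filter), -0.015 (only the 2 groups) and -0.21 (library totals). Library totals also gave -0.008 (miR-100-5p), -0.081 (miR-99a-3p), -0.11 (let-7c-5p), -0.078 (let-7a-5p), -0.10 (let-7c-1-3p) and -0.16 (miR-351-5p). Quality weights gave 0.11 (miR-125b-5p), -0.0064 (miR-99a-3p), -0.074 (let-7c-5p), -0.0046 (let-7a-5p) and -0.28 (let-7c-1-3p). Leaving out miR-10a-5p gave 0.0023 (miR-125b-5p) and 0.018 (let-7e-5p), and let-7e-5p was 0.0014 with antisense entries added and 0.027 with other-species miRNAs.

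For lisinopril against control, called miRNAs numbered 50 (quality weights), 17 (mean of 10 CPM), 40 (only the 2 groups) and 47 (other-species miRNAs), beside 26. miR-125b-5p was 0.028 (library totals), 0.023 (quality weights) and 0.030 (other-species miRNAs). let-7e-3p was -0.019 (DESeq2), -0.010 (RLE), -0.031 (quality weights) and -0.041 (mean of 10 CPM). let-7c-1-3p was -0.023 (voom) and -0.086 (quality weights), miR-10a-5p 0.014 (quality weights) and miR-125b-1-3p -0.0075 (mean of 10 CPM). Adding 10 counts gave ratio differences of 0.0071 (miR-99a-5p over miR-100-5p), 0.065 and 0.045 (miR-99a and miR-99b strands).

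With each library left out in turn, calls for irradiated against control ranged from 1 to 60: 60 without irradiated rat 4, 11 without control 3, 1 without control 4, 2 without irradiated 1 or irradiated 3 and 4 without irradiated 2. For lisinopril against irradiated they ranged from 0 to 47: 47 without irradiated 4 and 2 without lisinopril 4. For lisinopril against control they ranged from 13 to 43: 13 without control 4, 43 without irradiated 2, 15 without lisinopril 3 or lisinopril 4 and 16 without lisinopril 5. Differences whose sign changed ranged as follows. For irradiated against control: miR-125b-5p -0.16 to 0.10, miR-125a-5p -0.15 to 0.20, miR-99b-5p -0.083 to 0.23, miR-99a-3p -0.16 to 0.11, let-7c-1-3p -0.18 to 0.13, miR-10b-5p -0.35 to 0.014 and miR-351-5p -0.027 to 0.32. For lisinopril against irradiated: miR-99b-5p -0.14 to 0.17, miR-125b-5p -0.15 to 0.11, let-7e-5p -0.078 to 0.058, miR-351-5p -0.13 to 0.21, miR-99a-3p -0.032 to 0.25, miR-125b-2-3p -0.18 to 0.0027, let-7a-5p -0.0007 to 0.16, let-7c-1-3p -0.16 to 0.23 and let-7c-5p -0.082 to 0.16. For lisinopril against control: miR-125b-5p -0.10 to 0.017, miR-99a-5p -0.015 to 0.20, miR-100-5p -0.0038 to 0.17, let-7e-3p -0.087 to 0.17, miR-10a-5p -0.24 to 0.086, let-7c-1-3p -0.16 to 0.17, miR-99a-3p -0.0005 to 0.14 and miR-125b-1-3p -0.015 to 0.093. Ratios ranged as follows: for irradiated against control, miR-99b-5p over miR-125a-5p -0.024 to 0.12, summed miR-99/100 over miR-125 -0.049 to 0.083 and miR-99a strands -0.28 to 0.0049. For lisinopril against irradiated, miR-99b-5p over miR-100-5p gave -0.27 to 0.0004, miR-99a strands -0.02 to 0.31 and miR-125b strands -0.070 to 0.14. For lisinopril against control, miR-99a-5p over miR-100-5p gave -0.037 to 0.031, miR-99b-5p over miR-100-5p -0.039 to 0.069, and the miR-99a, miR-99b and miR-125a strands -0.088 to 0.14, -0.10 to 0.10 and -0.11 to 0.21. The cause of these changes was not tested.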
